A study of Mus musculus with 12 samples.

Results

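The genes of the phagocyte NADPH oxidase and its close companions were examined in alveolar macrophages flow-sorted from mouse lungs. They were taken by symbol from the deposited expression table: Cybb, Cyba, Ncf1, Ncf4, Rac1, Rac2, Hvcn1 and Nos2. All 8 were found among the 55291 gene rows, and all 8 were among the 19633 genes tested. The first 6 encode chains or activators of the oxidase. Hvcn1 encodes a proton channel and Nos2 the inducible nitric oxide synthase, so these last members are companions and not subunits.

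Macrophages were flow-sorted from lungs of female C57BL/6NJ mice aged 8 to 11 weeks. One group of 6 mice had breathed 0.8 ppm ozone and the other group of 6 filtered air, in both cases for 4 h on each of 4 days, and lungs were taken 3 days after the last exposure. The strain is an inbred wild type, and no transgene or deletion is named in the labels. Each mouse gave 1 polyA RNA library, and each of 2 flow-sort batches held 3 mice of either group.

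The NADPH oxidase of phagocytes passes electrons from NADPH across the phagosome or plasma membrane to oxygen and makes superoxide, which is used against ingested microbes and in redox signalling. Its core is a membrane flavocytochrome. In resting cells a complex of cytosolic subunits stays apart from it, and phosphorylation and loading of a Rac GTPase with GTP bring the parts together. In alveolar macrophages the enzyme is known as a source of the respiratory burst, and nitric oxide from the inducible synthase can react with superoxide to form peroxynitrite.

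Promoter sequences from RefSeq (build GRCm38.p6, 250 bases before to 50 after the start) were on hand for Cybb, Cyba and Ncf1, 3 of the 8 genes. Those of Cybb, the catalytic chain, and Ncf1, the member with the smallest p in limma, are shown 5′ to 3′ on the gene's strand, which is minus for both. They lie at chrX:9469275-9469574 and chr5:134229576-134229875. Capitals mark GAGGAA on either strand, a letter string of the kind bound by PU.1, the ETS factor of myeloid cells.
Cybb: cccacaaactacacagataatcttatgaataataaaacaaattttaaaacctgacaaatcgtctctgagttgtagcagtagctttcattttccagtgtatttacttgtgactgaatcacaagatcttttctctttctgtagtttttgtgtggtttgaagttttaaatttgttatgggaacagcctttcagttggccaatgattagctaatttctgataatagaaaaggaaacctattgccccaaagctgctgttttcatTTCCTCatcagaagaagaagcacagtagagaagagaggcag
Ncf1: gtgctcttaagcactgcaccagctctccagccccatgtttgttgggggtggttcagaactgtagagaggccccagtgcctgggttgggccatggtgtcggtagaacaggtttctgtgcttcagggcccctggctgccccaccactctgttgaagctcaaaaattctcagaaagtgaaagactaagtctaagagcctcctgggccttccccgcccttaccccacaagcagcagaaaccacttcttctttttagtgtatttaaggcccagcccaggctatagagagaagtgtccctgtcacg
The string occurred 1 time in the Cybb window, 0 times in that of Ncf1 and 0 times in that of Cyba. Among 32851 promoter windows of the same length, 28.3% held it, so a match is common and is a description only.

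The table holds variance-stabilized values on a log2 scale, and each value is relative to the filtered-air mean of its gene, which is 0. The abundance of a gene was therefore not kept, levels cannot be ranked between genes, and differences are compressed for genes with few reads. All 8 genes lay above the lowest value shared by mice, taken as that of no reads, in 12 of 12 mice. Of 12 markers of alveolar macrophages, among them Siglecf, Marco, Itgax, Pparg, Car4 and Fabp4, all 12 had reads in at least 6 mice, but so did markers of other cells, such as Cd79a, Cd3e and Sftpc. Without abundance the cell label could not be checked further. In limma 4 of the 12 had an adjusted p under 0.05, against 4.25% of all genes tested. Of these, Car4 (0.32) and Lyz2 (0.33) were higher after ozone, and Ear1 (-0.28) and Krt79 (-0.35) lower. Estimates were above 0 in 4 of the 12 markers and below 0 in 8. The largest was that of Marco, at 0.58, which was not called (limma adjusted p = 0.108). RNA integrity numbers ran from 8.9 to 9.7. Filtered-air mouse 4 had the lowest and lay highest of its group in 7 of 9 lists of markers of other cells, and ozone mouse 6 lay highest of its group in 5 of 9.

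Of the 8 genes, 0 passed an adjusted p of 0.05 in limma, while 4.25% of all 19633 genes tested passed. At an unadjusted p under 0.05, 3 of the 8 were found (Ncf1, Rac2 and Hvcn1), against 16.7% of all genes tested. Estimates were above 0 in 4 of the 8 and below 0 in the other 4, and they ran from -0.13 for Ncf1 to 0.16 for Rac2. The median difference was 0.016, and -0.0033 over all genes tested. The ozone and filtered-air values overlapped in all 8 genes, and they did not overlap in 3.53% of all genes tested.

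**Figure D1:**
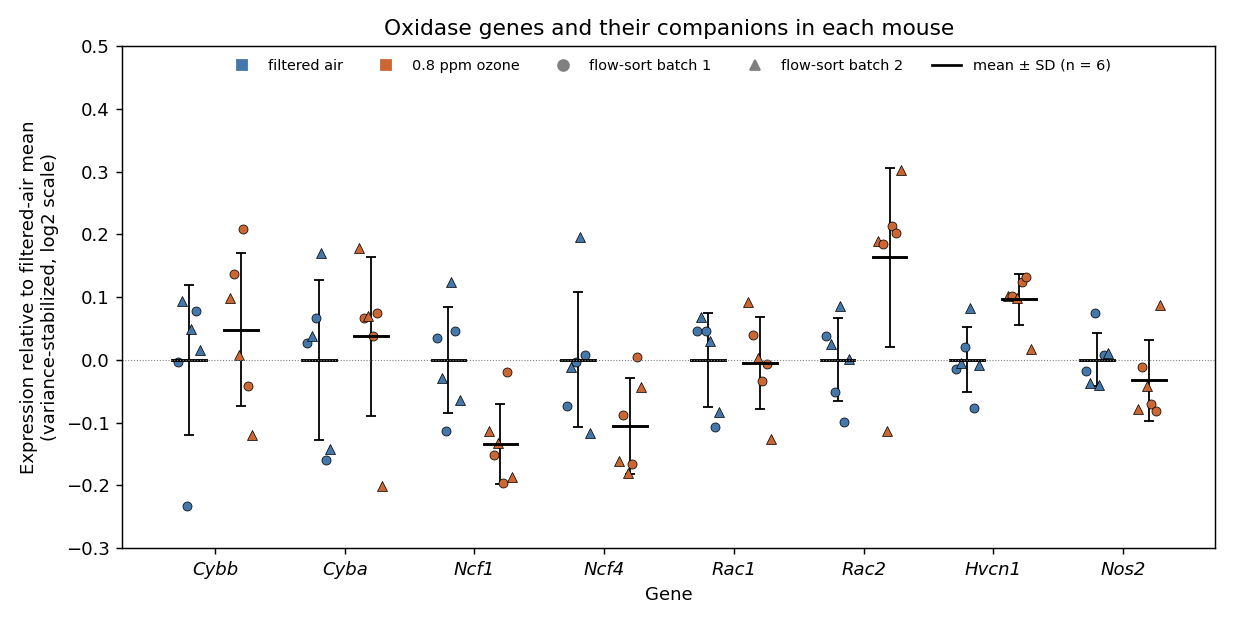
Expression of each gene in each mouse, relative to the filtered-air mean (vertical axis, variance-stabilized values on a log2 scale). Points are mice, coloured by exposure and shaped by flow-sort batch, and bars are the mean ± SD of 6 mice. Rac2 lies above all filtered-air mice in 5 of 6 ozone mice and Ncf1 below them in 5 of 6.

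The flavocytochrome genes gave no sign of a shift that exceeded the spread between mice. Cybb encodes gp91phox, the chain that carries the haems and the flavin and moves the electrons. Its values ran from -0.23 to 0.093 in filtered air, with a median of 0.032, and from -0.12 to 0.21 after ozone, with a median of 0.053. The groups covered much the same range, with 3 ozone mice above every filtered-air mouse and filtered-air mouse 3 far below the rest. The difference was 0.048 (SE 0.065, 95% interval -0.091 to 0.19, limma adjusted p = 0.79).

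Cyba encodes p22phox, the partner chain that stabilizes gp91phox and docks the cytosolic subunits. It ran from -0.16 to 0.17 in filtered air, with a median of 0.033, and from -0.20 to 0.18 after ozone, with a median of 0.068. Both ends of the combined range belonged to ozone mice, so the groups overlapped fully. The difference was 0.037 (SE 0.068, 95% interval -0.11 to 0.18, limma adjusted p = 0.852). Both intervals include 0.

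The genes of the cytosolic complex had estimates below 0. Ncf1 encodes p47phox, the organizer that is phosphorylated on activation and binds p22phox. It ran from -0.11 to 0.12 in filtered air, with a median of 0.0034, and from -0.20 to -0.020 after ozone, with a median of -0.14. All 6 ozone mice lay below 0 and 5 of 6 lay below every filtered-air mouse. The exception was ozone mouse 5. The difference was -0.13 (SE 0.046, 95% interval -0.23 to -0.035), with an unadjusted p of 0.0116 and an adjusted p of 0.136 in limma. A two-sided exact permutation test of this gene alone gave p = 0.0173. Without filtered-air mouse 4, the highest of its group, the difference was -0.11, and without ozone mouse 5 it was -0.16 (limma adjusted p = 0.252 and 0.0858). Without both mice numbered 4 it was -0.087 (limma adjusted p = 0.448).

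Ncf4 encodes p40phox, which binds a phosphoinositide of the phagosome membrane. It ran from -0.12 to 0.20 in filtered air, with a median of -0.0073, and from -0.18 to 0.0048 after ozone, with a median of -0.12. Here 3 of 6 ozone mice lay below every filtered-air mouse, and filtered-air mouse 4 stood highest at 0.20. The difference was -0.11 (SE 0.053, 95% interval -0.22 to 0.0084, limma adjusted p = 0.346; exact permutation test, p = 0.0628). Without filtered-air mouse 4 it was -0.062 (limma adjusted p = 0.574).

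Few reads of these genes could be shared with other genes. In GENCODE M21, 0.247% of the 50-base words of the longest coding transcript of Ncf1, and 0.502% of those of Rac2, occurred in transcripts of other genes, and for the other 6 studied genes it was 0%. How the authors assigned shared reads is not given in the sources used here.

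The Rac GTPases, whose GTP-bound form switches the oxidase on, gave estimates of different sizes. Rac2, the form restricted to blood cells, ran from -0.099 to 0.086 in filtered air, with a median of 0.013, and from -0.11 to 0.30 after ozone, with a median of 0.20. Ozone mice lay above every filtered-air mouse in 5 of 6 cases, while ozone mouse 3, at -0.11, lay below every filtered-air mouse. The difference was 0.16 (SE 0.061, 95% interval 0.033 to 0.29), with an unadjusted p of 0.0174 and an adjusted p of 0.17 in limma (exact permutation test, p = 0.0368). Without ozone mouse 3 it was 0.22 (SE 0.039, limma adjusted p = 0.0101). Rac2 therefore passed or missed the threshold depending on this mouse.

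Rac1, the form found in most cells, ran from -0.11 to 0.069 in filtered air, with a median of 0.038, and from -0.13 to 0.092 after ozone, with a median of -0.0018. The groups overlapped fully. The difference was -0.0051 (SE 0.046, 95% interval -0.10 to 0.093, limma adjusted p = 0.975). Rac3, a paralog known mainly from the nervous system, was in the list of other oxidase components. It ran from -0.13 to 0.11 in filtered air and from -0.53 to -0.23 after ozone, with no overlap. Rac3 fell by 0.34 (SE 0.058, limma adjusted p = 0.00439) and passed in all 12 limma fits that left out 1 mouse. In the annotation Rac1, Rac2 and Rac3 shared 0 words of 50 bases with each other's longest coding transcript.

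Hvcn1 encodes a voltage-gated proton channel that carries out the charge that the oxidase's electron current leaves behind. It ran from -0.076 to 0.083 in filtered air, with a median of -0.0066, and from 0.018 to 0.13 after ozone, with a median of 0.10. All 6 ozone mice lay above 0 and 5 of 6 above every filtered-air mouse, with ozone mouse 6 the exception. The difference was 0.096 (SE 0.036, 95% interval 0.019 to 0.17), with an unadjusted p of 0.0186 and an adjusted p of 0.176 in limma (exact permutation test, p = 0.00649). Hvcn1 is also known from B cells. The list of 8 B cell markers had a mean level from -0.24 to 0.37 in filtered air and from -0.38 to -0.088 after ozone, with 0 of 8 called and 8 of 8 estimates below 0. The part of B cells in the Hvcn1 values was not tested.

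Nos2 is induced in macrophages by interferon and microbial products. It ran from -0.039 to 0.075 in filtered air, with a median of -0.0048, and from -0.082 to 0.087 after ozone, with a median of -0.056. In 4 of 6 ozone mice Nos2 lay below every filtered-air mouse, and in ozone mouse 6 above every one. The difference was -0.032 (SE 0.039, 95% interval -0.12 to 0.051, limma adjusted p = 0.757).

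**Figure D2:**
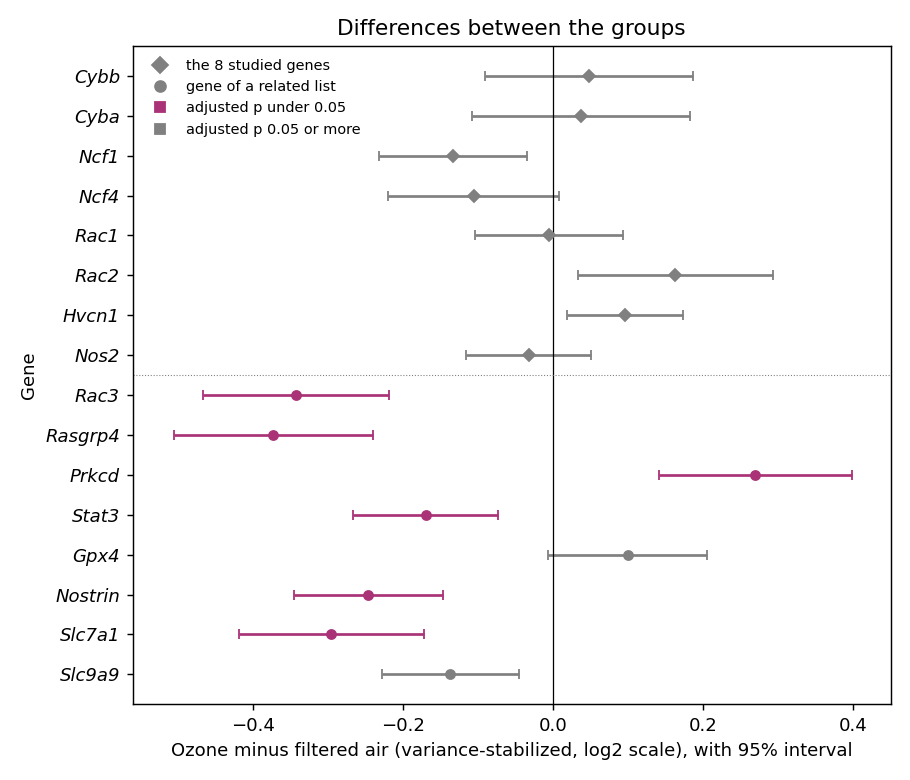
Difference between ozone and filtered air for each gene (horizontal axis, log2 scale), with the 95% interval from limma. Diamonds are the 8 studied genes, circles are genes named from the related lists, and purple marks an adjusted p under 0.05. None of the diamonds is purple, and of the genes of related lists shown 6 are, 5 below and 1 above 0.

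The ozone effect was also estimated within each flow-sort batch, where 3 mice stood against 3. Ncf1 differed by -0.11 in batch 1 and by -0.15 in batch 2, Ncf4 by -0.060 and -0.15, Rac2 by 0.24 and 0.089, and Hvcn1 by 0.14 and 0.050. The sign of these 4 genes was shared by the batches. Cybb differed by 0.15 and -0.057, Cyba by 0.082 and -0.0066, Rac1 by 0.0051 and -0.015, and Nos2 by -0.076 and 0.011, so their direction was not the same. In the interaction test of limma none of the 8 had an adjusted p under 0.05, and the smallest unadjusted p was 0.107, for Cybb.

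Partner genes were next compared within each mouse: the chains of the flavocytochrome, a pair of cytosolic subunits, and the alternative GTPases Rac2 and Rac1. The value of Rac2 minus that of Rac1 ran from -0.096 to 0.084 in filtered air and from -0.12 to 0.43 after ozone, and 5 of 6 ozone mice lay above every filtered-air mouse. The mean difference between groups was 0.17 (SD 0.18 after ozone and 0.066 in filtered air, n = 6 each; two-sided exact permutation test, p = 0.0563, adjusted over 3 pairs p = 0.169). Without ozone mouse 3 it was 0.23, with an adjusted p of 0.00649 in the exact permutation test. That mouse was the only ozone mouse not above the filtered-air mice. Without it the groups do not overlap, so the unadjusted p is the smallest this test can give. Cybb minus Cyba differed by 0.011 (exact permutation test, adjusted p = 0.916) and Ncf4 minus Ncf1 by 0.028 (exact permutation test, adjusted p = 0.821). Neither exceeded the spread between mice, which for Cybb minus Cyba had an SD of 0.20 in filtered air.

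**Figure D3:**
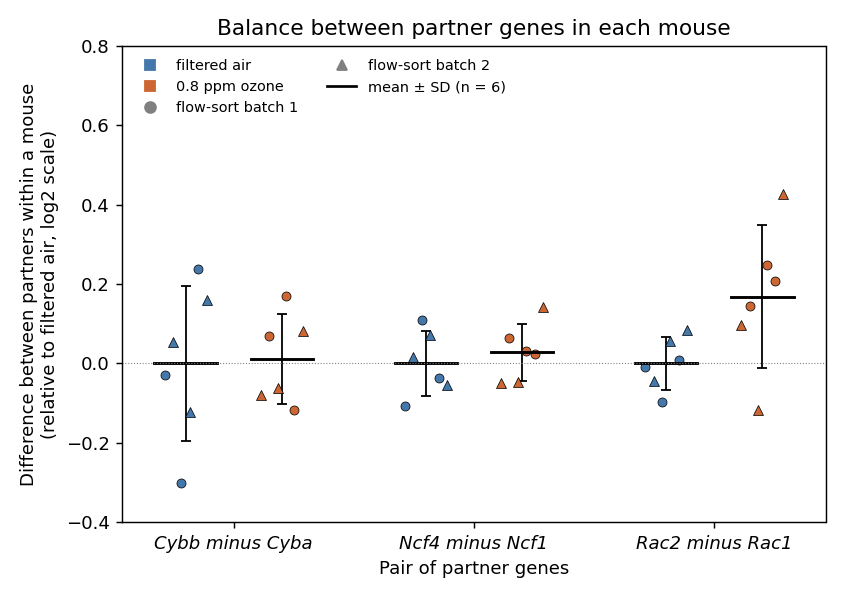
Difference between partner genes within a mouse (vertical axis, log2 scale, relative to filtered air) for 3 pairs. Points are mice, coloured by exposure and shaped by flow-sort batch, and bars are the mean ± SD of 6 mice. For Rac2 minus Rac1, 5 of 6 ozone mice lie above the filtered-air mice and ozone mouse 3 lies at -0.12.

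Across mice, Cyba and Rac1 went low in the same animals. Filtered-air mice 5 and 6 and ozone mouse 6 had Cyba values of -0.16, -0.14 and -0.20, while the other 9 mice lay at 0.027 or above. The same 3 mice had the lowest Rac1 values, at -0.11, -0.083 and -0.13, against -0.033 or above in the others. Of the 28 pairs of studied genes this one had the highest Pearson correlation over all 12 mice (r = 0.882, permutation test, p = 0.00062, adjusted over 28 pairs p = 0.0174). It was 0.853 within filtered air and 0.948 within ozone, and 0.723 without the 2 mice farthest from the Cyba median. Spearman's rho was 0.601 (permutation test, p = 0.0423, adjusted over 28 pairs p = 0.237). Over the 9 mice without the 3 low ones r was 0.369, a description with no test, so the high value rests on those 3. The low mice came from both exposures and both flow-sort batches.

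**Figure D4:**
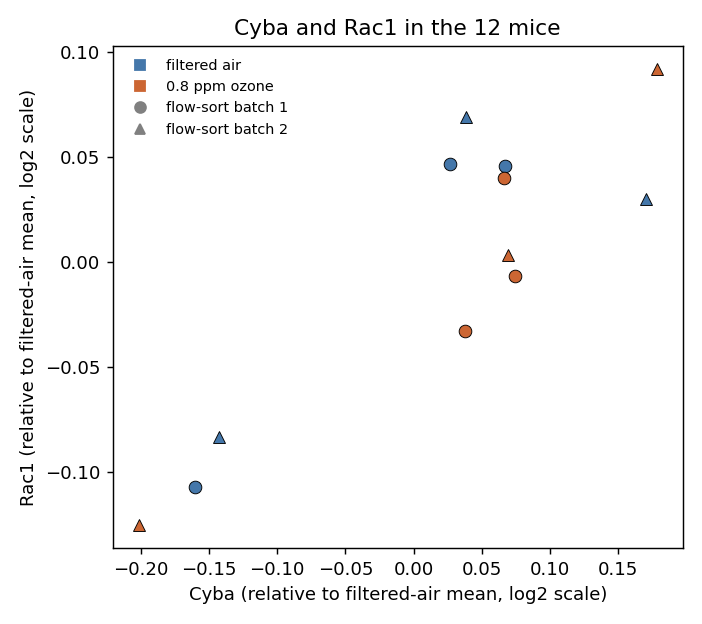
Cyba (horizontal axis) against Rac1 (vertical axis), both relative to the filtered-air mean on a log2 scale. Each point is 1 of 12 mice, coloured by exposure and shaped by flow-sort batch. The 3 mice at the lower left, 2 of filtered air and 1 of ozone, are apart from the other 9.

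The genes around the oxidase were taken from 7 lists, which named 98 genes. Of these, 92 were tested and 7 passed in limma, or 7.61% against 4.25% of all genes tested, with 1 higher and 6 lower after ozone. Among 8 tested genes of other oxidase components 2 were called, and Rac3 is described above. Not called in that list were Cybc1, the chaperone of the flavocytochrome (0.0083), Nrros, a negative regulator of the oxidase (0.017), Rap1a (-0.058), Nox1 (0.0023), Nox4 (-0.12) and the organizer Noxo1 (-0.056). Nox3, Noxa1 and the 4 Duox and Duoxa genes had reads in too few mice to be tested.

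In the list of 15 activators and inhibitors of Rac, 1 gene passed, and it is known as a regulator of Ras rather than of Rac. Rasgrp4, a guanine nucleotide exchange factor of myeloid cells, fell by 0.37 (SE 0.062, limma adjusted p = 0.00422), with all 6 ozone values under all 6 filtered-air values. The Rac exchange factor Vav1 differed by 0.030 and Dock2 by 0.020, neither of them called. The list had a median difference of 0.020, with 8 of 15 estimates above 0.

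Among 20 kinases and upstream signalling genes, 1 passed. Prkcd, which encodes protein kinase C delta, a kinase that phosphorylates p47phox, rose by 0.27 (SE 0.060, limma adjusted p = 0.0203) and 5 of 6 ozone values exceeded all those of filtered air. Ozone mouse 1, at 0.0051, was the exception. Prkcd no longer passed without filtered-air mouse 1 (limma adjusted p = 0.0525) and without ozone mouse 3 (limma adjusted p = 0.054). Prkca (-0.12) and Prkcb (-0.072) were not called.

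Of 12 transcription factors of oxidase genes, 1 passed. Stat3, which relays cytokine signals, fell by 0.17 (SE 0.045, limma adjusted p = 0.0484), and it lost its call in 11 of 12 limma fits without 1 mouse. Spi1, which encodes PU.1, differed by 0.020 and Irf8 by 0.056, neither of them called. The median of the list was -0.021, with 7 of 12 estimates below 0.

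None of 11 genes that remove superoxide or hydrogen peroxide passed in limma, and 0 had an unadjusted p under 0.05. Gpx4, which reduces lipid hydroperoxides, had the smallest p, with a difference of 0.10 (SE 0.049, limma adjusted p = 0.335), and of 0.062 without ozone mouse 1. The superoxide dismutases Sod1 and Sod2 differed by -0.013 and 0.024, and catalase (Cat) by -0.0019, none of them called. The median of the list was 0.024.

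In the list of arginine, tetrahydrobiopterin and nitric oxide, 2 of 17 genes passed, both lower. Slc7a1, a carrier of arginine and other cationic amino acids, fell by 0.30 (SE 0.058, limma adjusted p = 0.010). Nostrin, a trafficking partner of the endothelial nitric oxide synthase, fell by 0.25 (SE 0.046, limma adjusted p = 0.00824). In both, all 6 ozone mice lay below all 6 filtered-air mice, and both passed in all 12 limma fits without 1 mouse. After quantile normalization neither passed, with differences of -0.26 for Slc7a1 and -0.20 for Nostrin (limma adjusted p = 0.079 and 0.076). Of 6 endothelial markers 0 were called in limma and 6 had estimates below 0, and their mean level ran from -0.33 to 0.36 in filtered air and from -0.38 to 0.28 after ozone. The part of endothelial cells in the Nostrin values was not tested. Nos2 is given above, and the median of the arginine list was -0.0018.

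None of 9 genes of charge and pH balance in the phagosome passed in limma, and 2 had an unadjusted p under 0.05. Slc9a9, a sodium-proton exchanger of endosomes, had the smallest p, with a difference of -0.14 (SE 0.043, limma adjusted p = 0.0968), and passed without ozone mouse 1 (-0.17, limma adjusted p = 0.0264). The chloride-proton exchanger Clcn3 differed by 0.014 and was not called.

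**Figure D5:**
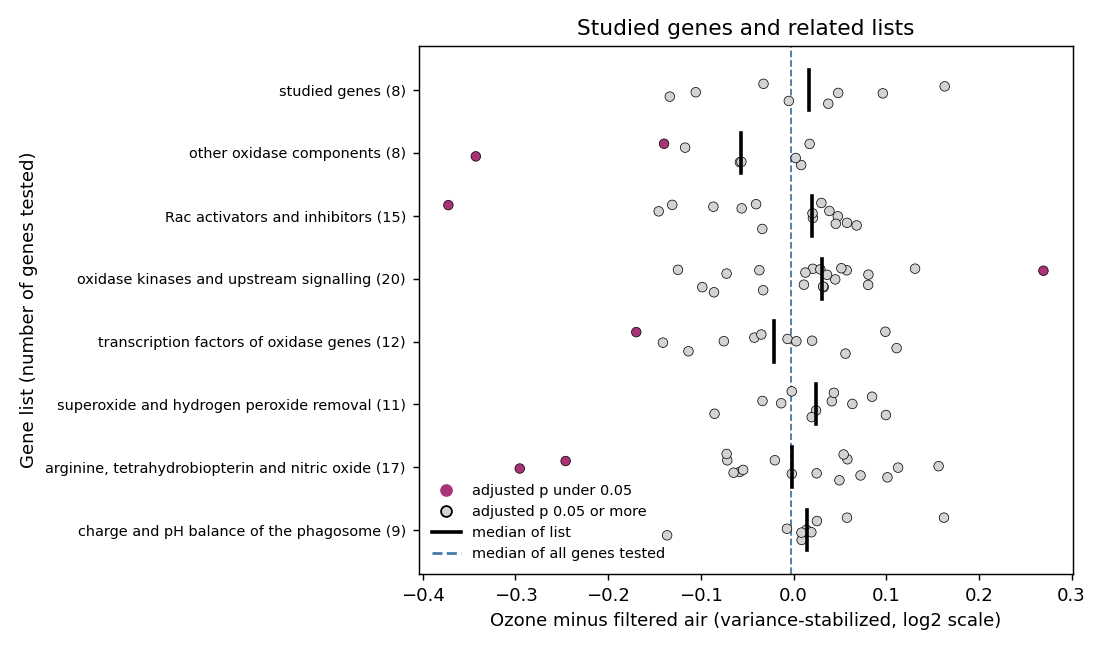
Difference between ozone and filtered air for each tested gene of the 8 studied genes and the 7 related lists (horizontal axis, log2 scale). Points are genes, purple marks an adjusted p under 0.05 in limma, black bars are list medians and the dashed line is the median of all genes tested, -0.0033. List medians lie between -0.057 and 0.030.

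The genes most like each studied gene were sought among all genes tested, by the highest Pearson r over the 12 mice. They were Ccdc50 (0.916) and Dok4 (0.908) for Cybb, 1110008P14Rik (0.966) and Gm50419 (0.964) for Cyba, and Rps16 (0.979) and Tmsb4x (0.978) for Rac1. For Ncf1 they were Zyx (0.946), which encodes a protein of focal adhesions, and Tubb2a (0.92), a beta tubulin. Ncf4 was most like Jhy (0.931) and Sfn (0.92), and Rac2 most like Tubg2 (0.908) and Ly6g6d (0.902). Hvcn1 was most like Lgals3bp (0.947) and Ftl1 (0.939), the ferritin light chain, and Nos2 most like Slc25a22 (0.948) and Trmu (0.926). Of all the genes named here, Tubb2a fell by 0.25 and Lgals3bp rose by 0.17, with limma adjusted p-values of 0.00728 and 0.0177, and the others were not called. They were picked for their r among 19633 genes, so the values are a description.

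Neutrophils carry much of the same oxidase, so their markers were examined. Of 15 markers, 9 were tested and 1 was called, Cxcr2, higher after ozone by 0.79. Estimates of the 9 markers were above 0 in 4 and below 0 in 5, with a median of -0.015. Elane and Camp had no spread between mice, and Ly6g, Ngp, Mpo and Stfa2l1 had reads in 1, 2, 3 and 5 mice. The mean level of the 9 markers ran from -0.15 to 0.26 in filtered air and from 0.0077 to 0.14 after ozone. Monocyte markers, 10 of 10 tested and 0 called, ran from -0.13 to 0.32 and from -0.092 to 0.061. Filtered-air mouse 4 had the highest value of its group in all 3 of the neutrophil, monocyte and B cell lists, and also in Cyba, Ncf1, Ncf4, Rac2 and Hvcn1. The part of other cells in these values was not tested, and in bulk RNA fewer cells of a type cannot be told apart from less RNA per cell.

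In GENCODE M21 (GRCm38, the assembly that mm10 names) the genes with a p under 0.05 before adjustment lie at chr5:134220053-134229625 (Ncf1, minus strand), chr15:78559167-78572783 (Rac2, minus strand) and chr5:122206804-122242297 (Hvcn1, plus strand). Ncf4 lies on the same chromosome as Rac2, at chr15:78244801-78262580 on the plus strand. Ncf1 overlaps Gtf2ird2 and Hvcn1 overlaps Tctn1, in both cases on the opposite strand, and Cyba overlaps Gm20388 and Rac1 overlaps Daglb and Gm42502 in the same way. The library kit keeps strand, but whether counting used it is not given in the sources used here, so reads of these partners may not have been told apart.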

How the data were processed

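PolyA RNA of flow-sorted alveolar macrophages from 12 mice was sequenced as paired-end reads from a strand-keeping kit, per the labels' protocols. The authors deposited 1 table of log2-scale values after a variance-stabilizing transformation and batch correction, per the file's name. The build is mm10, and cutadapt, STAR 2.7.7a, Salmon 1.5.2, DESeq2 1.26.0, R 3.6.0 and limma 3.42.2 are named with no role, per the submitters' processing notes. The annotation is not given in the sources used here. The filtered-air mean and the difference between batch means are 0 in every gene. The total read depth per mouse is unknown. All 12 columns matched 1 sample title each.

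Genes were kept where at least 6 of 12 mice lay above the lowest value shared by mice of a batch, which left 19633 of 25444 genes that varied. Ozone was compared with filtered air in limma 3.58.1 (R 4.3.3) with flow-sort batch as covariate and no variance trend, and p-values were adjusted over all genes tested by the Benjamini-Hochberg method. Exact permutation tests were two-sided over all 924 assignments of 6 mice against 6. Correlations between the 28 pairs of studied genes were tested with 100000 two-sided permutations. The limma fit was tested on simulated data. The genes and lists were chosen with earlier results of these data known. From each related list the genes with an adjusted p under 0.05 were named, up to 6, or else the gene with the smallest p except for an item not reported here, and further members were named after their values were seen to describe the list. For each studied gene the 2 most similar genes were named. Replicate numbers were given to different animals and were not used as pairs. Alternatives were the variance trend, a robust prior, other filters, quantile normalization, no batch term, RNA integrity as covariate, single batches, a replicate block and leaving out each mouse. The comparison without both mice numbered 4, and all alternatives for the related lists, were added after seeing the data.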

Additional observations from a re-analysis of the deposited data

Results flagged for a closer look

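In 4 of 22 combinations of group and measure, 1 mouse stood far from the other 5 of its group (its gap to the nearest value, as a ratio to the group's range, was above Dixon's 95% critical value), where chance gives about 1.1. Cybb was low in filtered-air mouse 3, at -0.23 (ratio 0.705), and without this mouse the Cybb difference was -0.0037. Cyba was low in ozone mouse 6, at -0.20 (ratio 0.631), and without this mouse its difference was 0.091, while without filtered-air mouse 5 it was 0.0019. Rac2 was low in ozone mouse 3, at -0.11 (ratio 0.718), and without this mouse Rac2 passed the threshold of limma. Hvcn1 was low in ozone mouse 6, at 0.018 (ratio 0.71). RNA integrity numbers of these mice were 9.3, 9.5 and 9.2, within the range of the series.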

How the results depend on the processing

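The count of called genes among the 8 was 0 in all 11 settings other than leaving out single mice. It ran from 0 to 1 without single mice, and the 1 was Rac2 without ozone mouse 3 (Rac2 differed by 0.13 to 0.22 in these fits). Over all genes 834 were called in limma. The count was 171 after quantile normalization, 90 in batch 1, 0 in batch 2, 534 without both mice numbered 4, and 538 (without filtered-air mouse 1) to 751 without single mice. In the related lists 7 genes were called, against 2 after quantile normalization, 0 in batch 1, 0 in batch 2, 4 without both mice numbered 4, and 4 to 6 without single mice.

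Differences near 0 changed sign. Rac1 was at 0.0015 with RNA integrity as covariate, 0.0051 in batch 1 and 0.0093 without both mice numbered 4, and ran from -0.029 to 0.022 without single mice. In batch 2 Cybb was at -0.057, Cyba at -0.0066 and Nos2 at 0.011. Without single mice Cybb ran from -0.0037 to 0.085. Cybb minus Cyba was at -0.0054 after quantile normalization, 0.072 in batch 1 and -0.051 in batch 2, and ran from -0.049 to 0.058 without single mice, Ncf4 minus Ncf1 ran from 0.0050 to 0.050, and Rac2 minus Rac1 from 0.12 to 0.23. Nos2 ran from -0.059 (without ozone mouse 6) to -0.016 (without filtered-air mouse 3). The cause was not tested. Ncf1 (-0.13), Rac2 (0.16) and Hvcn1 (0.096) were under 0.05 in the exact permutation test of each gene alone, which is not adjusted over genes.

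Of the called genes of the related lists, Stat3 lost its call in 7 of 11 settings (adjusted p up to 0.544, in batch 1), Prkcd in 4, Slc7a1 and Nostrin in 3, and Rac3 and Rasgrp4 in 2. The single-batch fits, with 6 mice each, are among these for every gene.

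Same-numbered mice are different animals. For numbers 1 to 4 the mice of the 2 groups came from different flow-sort batches, and the numbers were not taken as pairs. Deviations of same-numbered mice from the group means correlated between -0.0026 and 0.284, above 0.1 in 4 of 6 pairs. Mice of unlike numbers were not compared in this way, so these values cannot decide whether the numbers mark pairs. With the replicate block 853 genes were called in limma over all genes, 5 in the related lists and 0 of the 8. Stat3 lost its call (limma adjusted p = 0.0646). Sign flips within these pairs gave an adjusted p of 0.188 for Rac2 minus Rac1. The unknown read depth limits what differences in genes with few reads can show.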

Other observations

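The 3 mice that were low in both Cyba and Rac1 were also the lowest in the mean of 86 genes of cytosolic ribosomal proteins. The means were -0.093 and -0.072 in filtered-air mice 5 and 6 and -0.20 in ozone mouse 6, against -0.071 to 0.17 in the other 9 mice. The ribosomal mean did not separate the exposures, at -0.0051 after ozone and 0 in filtered air (two-sided exact permutation test, p = 0.935), and 0 of the 86 genes were called in limma. The measure was chosen after these mice, and after Rps16 as the gene most like Rac1, had been seen, so its correlations are descriptions and carry no test. Over all 12 mice Pearson's r with the ribosomal mean was 0.919 for Rac1 and 0.852 for Cyba. Without the 2 mice farthest from the gene's own median, r was 0.857 for Rac1 and 0.699 for Cyba. For the other 6 studied genes r ran from -0.452 (Nos2) to 0.365 (Hvcn1).

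In the same ozone mouse 6, Rac2 was the highest of all 12 mice, at 0.30, and Nos2 was the highest as well, at 0.087, while Cyba and Rac1 were the lowest, at -0.20 and -0.13. This mouse was also the highest of the ozone group in 5 of 9 lists of markers of other cells (neutrophil, dendritic, epithelial, endothelial and fibroblast), and their part in these values was not tested. Without this mouse the Rac2 difference was 0.13 and the Nos2 difference was -0.059, neither of them called in limma (adjusted p = 0.281 and 0.425).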
